A study of Mus musculus with 2 samples.

Results

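The proteasome and the machinery that loads its peptides onto MHC class I were examined through 59 genes of the 19937 that could be named on the arrays. They are the genes whose symbol starts with Psma, Psmb, Psmc, Psmd, Psme, Psmf or Psmg and a digit, apart from Psmb11, together with Tap1, Tap2, Tapbp, Tapbpl, B2m, Erap1, Calr, Canx, Pdia3 and Nlrc5. Each gene is represented by the probe set with the highest mean level, and 6 of the 59 had more than 1 probe set. The symbol rule also takes in Psmc3ip and Psme3ip1, which are no proteasome subunits and are listed apart.

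Medullary thymic epithelial cells (mTEC) of B6 mice aged 6 weeks were sorted as EpCAM+, CD45-, Ly51low and MHC-II low (mTEClo), and are called residual cells in the design text. All mice carried the floxed allele HDAC3fl/fl, either alone (labelled WT) or with Foxn1-Cre, a Cre recombinase driven by a gene of thymic epithelium (labelled HDAC3cKO). Total RNA came from about 30000 sorted cells, with 10 to 30 mice usually pooled for HDAC3cKO, and each genotype had 1 Affymetrix Mouse Gene ST array. With 1 array per genotype there is no replicate error, and no test was made. "Higher" and "lower" compare the array labelled HDAC3cKO with the array labelled WT and hold for these 2 arrays. Levels are log2 intensities, and a difference is the level on the array labelled HDAC3cKO minus that on the array labelled WT. Hdac3 had a level of 10.90 under the WT label and 11.64 under the HDAC3cKO label, which goes against the label. Which exons the allele loses is not stated in the sources used here, and directions rest on the labels.

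The proteasome is a barrel-shaped protease, the 20S core, that is capped by the 19S regulatory particle, which binds and unfolds ubiquitin-tagged proteins. In cells exposed to interferon, and constitutively in many immune cells, the catalytic subunits Psmb8, Psmb9 and Psmb10 replace Psmb5, Psmb6 and Psmb7 and form the immunoproteasome. Peptides cut in the cytosol are pumped into the endoplasmic reticulum by the TAP transporter, trimmed there, and loaded onto class I heavy chains paired with beta-2 microglobulin. Thymic epithelium presents self peptides on class I to developing CD8 T cells, and cortical epithelium carries its own catalytic subunit, Psmb11.

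Psmb9, Tap1, Psmb8 and Tap2 are neighbours, in this order, in the RefSeq gene table of GRCm38.p6, between the class II genes H2-DMb1 and H2-Ob. Psmb9 and Tap1 are read in opposite directions from one intergenic stretch. Their promoter windows (250 bases before the start and 50 from it on) share 275 of 300 bases, chr17:34187306-34187580, with 225 bases between the starts. The Tap1 window, chr17:34187306-34187605 on the plus strand, is shown because both genes start in it, and capitals mark the part shared with the Psmb9 window.
Tap1: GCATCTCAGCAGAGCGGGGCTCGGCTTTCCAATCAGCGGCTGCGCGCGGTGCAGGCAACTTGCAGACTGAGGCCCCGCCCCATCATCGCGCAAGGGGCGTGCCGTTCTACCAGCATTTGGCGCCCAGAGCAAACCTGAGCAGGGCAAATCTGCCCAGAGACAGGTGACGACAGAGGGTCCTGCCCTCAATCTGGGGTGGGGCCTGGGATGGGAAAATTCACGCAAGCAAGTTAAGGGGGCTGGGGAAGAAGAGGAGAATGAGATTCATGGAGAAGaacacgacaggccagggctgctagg

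Promoter windows from RefSeq (GRCm38.p6) were matched for 48 of the 59 genes. The interferon-stimulated response element core (GAAA, any 2 bases, GAAA), searched on both strands like all motifs here, was in the windows of 7 of these 48 genes (14.6%) and of 3.99% of all 27025 genes with a window, counted by gene. The 7 genes were B2m, Erap1, Psmb3, Psmd4, Psmd9, Psme1 and Psmg4. The windows of Erap1 (chr13:74639603-74639902), B2m (chr2:122147437-122147736) and Psme1 (chr14:55578244-55578543), all on the plus strand, are shown because these genes act in class I presentation, Erap1 as the highest of all members and the others near 0 (values below). Capitals mark the core on either strand.
Erap1: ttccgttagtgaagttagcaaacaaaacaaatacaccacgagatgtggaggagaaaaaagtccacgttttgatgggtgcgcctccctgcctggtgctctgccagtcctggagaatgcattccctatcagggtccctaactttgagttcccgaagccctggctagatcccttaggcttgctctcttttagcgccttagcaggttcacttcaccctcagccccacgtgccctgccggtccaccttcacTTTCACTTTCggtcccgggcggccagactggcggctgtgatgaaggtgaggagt
B2m: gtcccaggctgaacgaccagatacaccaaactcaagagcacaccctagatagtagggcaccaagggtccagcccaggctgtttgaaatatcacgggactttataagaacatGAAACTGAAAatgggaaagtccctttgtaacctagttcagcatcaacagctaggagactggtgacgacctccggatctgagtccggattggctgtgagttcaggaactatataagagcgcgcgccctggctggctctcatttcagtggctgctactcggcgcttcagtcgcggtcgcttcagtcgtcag
Psme1: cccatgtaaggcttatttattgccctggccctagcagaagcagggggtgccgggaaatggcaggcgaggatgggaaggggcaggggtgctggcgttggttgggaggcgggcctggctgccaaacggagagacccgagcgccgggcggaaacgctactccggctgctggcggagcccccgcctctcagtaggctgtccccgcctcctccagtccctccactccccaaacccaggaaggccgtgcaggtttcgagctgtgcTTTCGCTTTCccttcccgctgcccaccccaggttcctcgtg
The GAS element TTCNNNGAA was in the windows of 3 of the 48 genes (6.25%, against 9.55% of all genes), among them Psmb8. A loose kappaB pattern (GGG, any 5 bases, CC) was in 58.3% against 53.5%, the antioxidant response element core TGACNNNGC in 16.7% against 14.0%, and CCAAT in 43.8% against 41.1%. A match of letters is a description and not a binding site.

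None of the 59 genes differed 2-fold between the arrays, in a table where 2.97% of named genes lay 2-fold or more above, and 5.88% 2-fold or more below, their level under the WT label. Differences ran from -0.56 for Psme4 to 0.65 for Erap1, with a median of -0.01 beside 0.01 over all named genes. In the unscaled values, the aminopeptidase Erap1 and the core subunit Psmb1 were more than 1.5-fold higher and no member was 1.5-fold lower, against 8.33% and 11.2% of named genes. These counts depended on the scaling. After quantile normalization Psme4 was also past 1.5-fold, at -0.59, giving 2 higher and 1 lower against 8.48% and 11.1% of named genes. After the intensity-dependent loess curve Psmb1, at 0.56, was no longer past 1.5-fold, and Psme4 and Nlrc5 were 1.5-fold lower at -0.63 and -0.59, giving 1 higher and 2 lower against 7.34% and 12.1%. Averaged over its probe sets, Nlrc5 was lower by more than 1.5-fold as well, at -0.74. In all, 28 members were above 0 and 31 below, and 38 lay within 0.25 of 0. Of all 19937 named genes, 10175 were above 0 and 9620 below. A difference larger in size than that of Erap1 was found in 17.2% of all named genes and in 22.5% of the 9969 named genes whose mean level was at or above the median, 8.03. That filter was passed by 56 of the 59, and missed by Psma8, Psmg3 and Psmd9. Among the genes above it, 4.54% were 2-fold higher and 6.75% 2-fold lower. After rescaling the arrays by median centring, quantile normalization or loess, 50 of the 59 kept their sign under all of these. The 9 that did not, B2m, Psma8, Psmb4, Psmb6, Psmc4, Psmd1, Psmd3, Psmd6 and Psmd11, all lay close to 0.

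**Figure D1:**
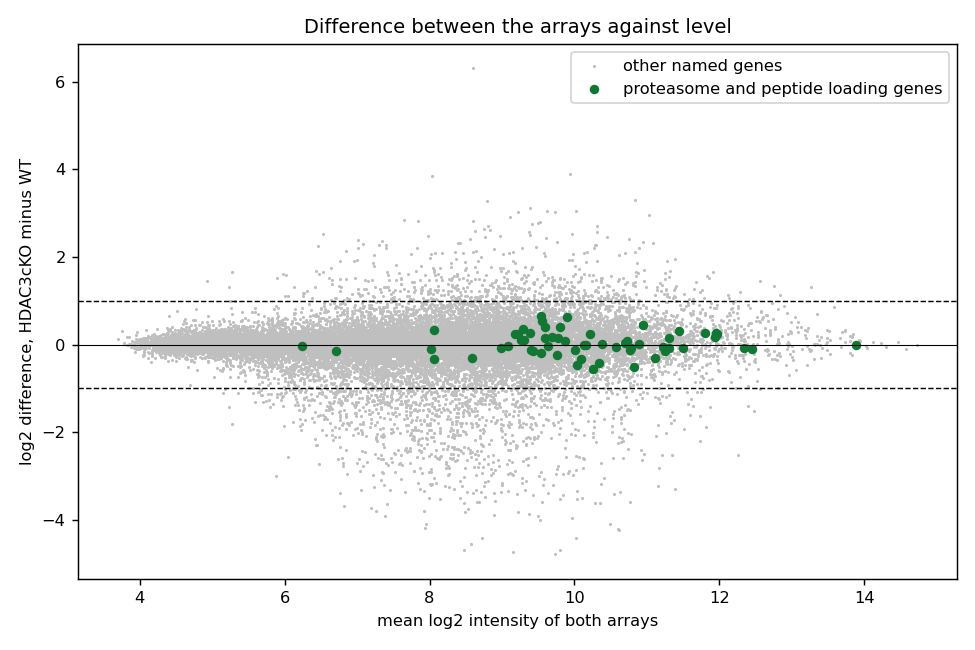
Log2 difference (HDAC3cKO minus WT) against the mean log2 intensity of both arrays, 1 point per named gene, with the 59 proteasome and peptide loading genes in green and dashed lines at 2-fold. The green points run from -0.56 to 0.65 and none reaches a dashed line.

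The alpha subunits form the outer rings of the core and its gate. Of the 8 alpha genes, 6 were above 0, with a median of 0.24, and none passed 1.5-fold. Of all 19937 named genes, 10175 were above 0. The upper quartile was 0.23 over all named genes and 0.33 over those past the level filter. The count of alpha genes above 0 was 7 after median centring and 6 after quantile normalization and loess. Psma6 was highest, with a level of 10.72 under the WT label and 11.18 under the HDAC3cKO label, a difference of 0.46 or 1.37-fold. Psma1 differed by 0.32, Psma4 by 0.25, Psma2 by 0.24, Psma5 by 0.23 and Psma7 by 0.15. Psma3 went the other way, from 10.83 to 10.71, a difference of -0.12. Psma8, which takes the place of Psma7 in the testis proteasome, was at 6.26 and 6.22. The alpha ring genes of somatic cells were thus slightly higher except for Psma3.

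The structural beta subunits carry no active site after assembly. Psmb1, counted here among them, had a level of 9.59 under the WT label and 10.20 under the HDAC3cKO label, a difference of 0.62 or 1.53-fold, the largest of any core or cap subunit. Psmb2 differed by 0.24 and Psmb4 by 0.02, and Psmb3 by -0.11 from a level of 12.50. Under quantile normalization and loess, Psmb4 was just below 0 and 2 of the 4 were above it.

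The constitutive catalytic subunits were close to equal on both arrays. Psmb5, the chymotrypsin-like subunit, was at 11.53 under the WT label and 11.46 under the HDAC3cKO label. Psmb6, the caspase-like subunit, was at 10.17 and 10.15, and Psmb7, the trypsin-like subunit, at 10.07 and 9.95. These differences of -0.07, -0.01 and -0.12 are small, and that of Psmb6 became 0.04 after median centring.

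Their inducible counterparts differed in opposite directions. Psmb8, which replaces Psmb5, was 1.38-fold lower, at 10.27 under the WT label and 9.81 under the HDAC3cKO label, a difference of -0.46. Psmb9, which replaces Psmb6, was at 10.69 and 10.77, a difference of 0.09. Psmb10, which replaces Psmb7, was 1.21-fold higher, at 11.66 and 11.94, a difference of 0.27. Set against the constitutive subunit that each replaces, the inducible subunit differed by -0.39 for Psmb8, 0.10 for Psmb9 and 0.40 for Psmb10. These signs held under each rescaling, between -0.39 and -0.32 for the first pair and between 0.31 and 0.40 for the last. Median centring could not change them, because it shifts both genes of a pair alike. The thymoproteasome subunit Psmb11, a marker of cortical epithelium, was at 7.39 and 8.93, a difference of 1.54 that exceeds that of every member.

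Markers of other cell types differed between the same arrays. Each of the 16 markers of macrophages and dendritic cells was below 0, with a median of -0.90, and their summed intensity was 18600 under the WT label and 7816 under the HDAC3cKO label. Ptprc, which encodes the CD45 excluded in the sort, was at 9.63 and 8.79. All 12 endothelial markers were above 0, with a median of 0.98 and summed intensities of 9359 and 19011, and Pecam1 was at 10.10 and 11.18. The lowest intensity of any probe set was 10.8 under the WT label and 11.5 under the HDAC3cKO label. A marker value above 0 is therefore no detection call. The part of these other cell types in the values of Psmb8, Psmb10 or any other gene here was not tested. In pooled RNA, fewer cells of a type and less RNA per cell cannot be told apart.

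**Figure D2:**
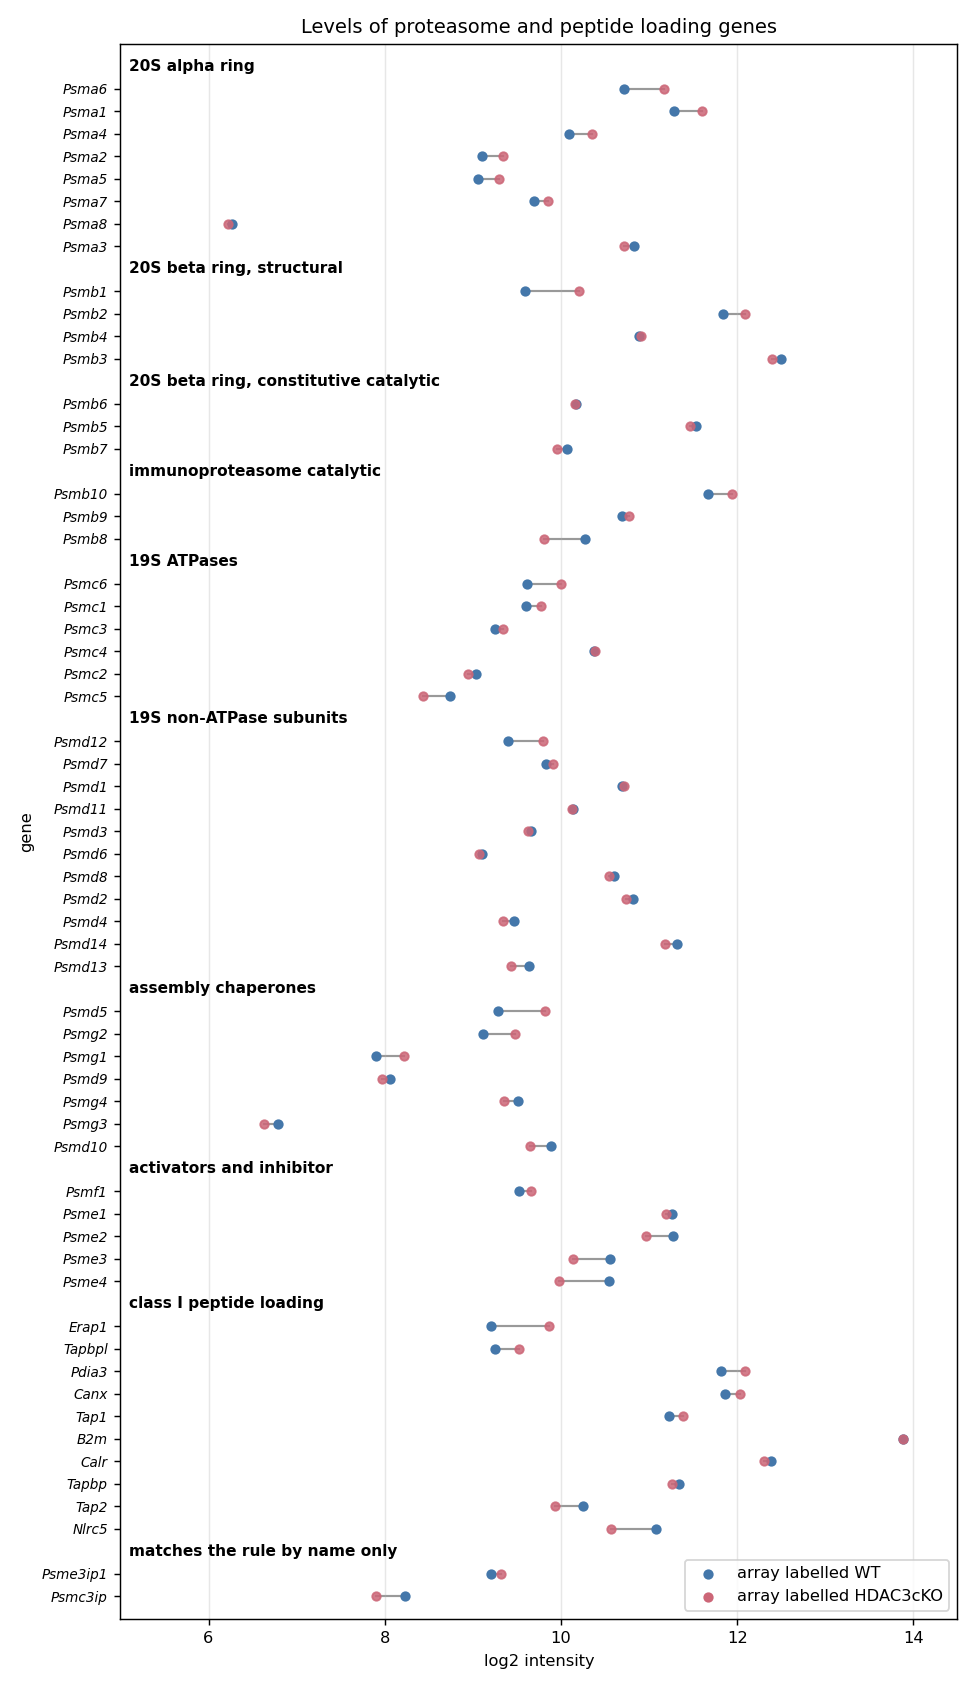
Log2 intensity of each of the 59 genes on the arrays labelled WT (blue) and HDAC3cKO (red), grouped by role, with a grey line joining both values. Psmb1 and Erap1 have the longest lines to the right and Psme4 and Nlrc5 the longest to the left. Distances between genes cannot be read as abundance, since each probe set has its own response.

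Most genes of the 19S particle lay close to 0. Of its 6 ATPases, which unfold substrates and thread them into the core, 4 were above 0, with a median of 0.05, and 3 were above 0 under quantile normalization and loess. Psmc6 was highest, at 9.61 under the WT label and 10.00 under the HDAC3cKO label, a difference of 0.39. Psmc5 was lowest, at 8.75 and 8.43, a difference of -0.31. Psmc1 differed by 0.17, Psmc3 by 0.09, Psmc4 by 0.02 and Psmc2 by -0.09. A second probe set of Psmc1 gave -0.01.

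Of the 11 non-ATPase subunits, 8 were below 0, with a median of -0.04, and 10 lay between -0.20 and 0.08. After median centring, 6 of the 11 were above 0. The exception in size was Psmd12, a subunit of the lid, at 9.40 under the WT label and 9.80 under the HDAC3cKO label, a difference of 0.40 or 1.32-fold. Psmd14, the deubiquitinase that clips ubiquitin off substrates, differed by -0.14 and its partner in the lid, Psmd7, by 0.08. Psmd4, a ubiquitin receptor, differed by -0.12, and Psmd13 was lowest of the 11, at 9.64 and 9.43, a difference of -0.20. The large scaffold subunits Psmd1 and Psmd2 differed by 0.03 and -0.08. Psmd3, Psmd6, Psmd8 and Psmd11 differed by -0.03, -0.04, -0.06 and -0.02. Sem1, a further lid subunit, lies outside the symbol rule and is counted below among the proteasome-associated factors. It was lower than any of the 11, at 10.22 under the WT label and 9.84 under the HDAC3cKO label, a difference of -0.38.

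Chaperones that assemble the core and the cap went both ways, 3 above and 4 below 0. The core chaperones act as dimers, and partners had like values. Psmg1 and Psmg2 differed by 0.32 and 0.36, and Psmg3 and Psmg4 by -0.16 each, Psmg3 at the low levels of 6.79 and 6.63. Among chaperones of the ATPase ring, Psmd5 was highest, at 9.28 under the WT label and 9.81 under the HDAC3cKO label, a difference of 0.53 or 1.45-fold. Psmd10, also called gankyrin, was lowest, at 9.89 and 9.65, a difference of -0.24, and Psmd9 differed by -0.09.

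Activators cap the core in place of the 19S particle, and all 4 measured here were below 0. Psme4, which encodes the PA200 activator linked to histone degradation, had a level of 10.54 under the WT label and 9.98 under the HDAC3cKO label, a difference of -0.56 or 1.47-fold. Psme3, the nuclear activator PA28 gamma, was at 10.55 and 10.14, a difference of -0.42 or 1.34-fold. Psme1 and Psme2 encode the interferon-inducible subunits that together form the PA28 activator of the immunoproteasome. Psme1 was at 11.26 and 11.20 and Psme2 at 11.27 and 10.96, differences of -0.06 and -0.31. Psmf1, an inhibitor of the core, differed by 0.14. The median of these 5 genes was -0.31, and between -0.40 and -0.26 under the rescalings, with 4 of 5 below 0 under each. Psme1 was only just below 0 after median centring, at -0.009. Of all 19937 named genes, 9620 were below 0 in the unscaled values.

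Of the genes that matched by name only, Psmc3ip, a factor of meiotic recombination, differed by -0.32 and Psme3ip1, a nuclear protein that binds Psme3, by 0.11.

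**Figure D3:**
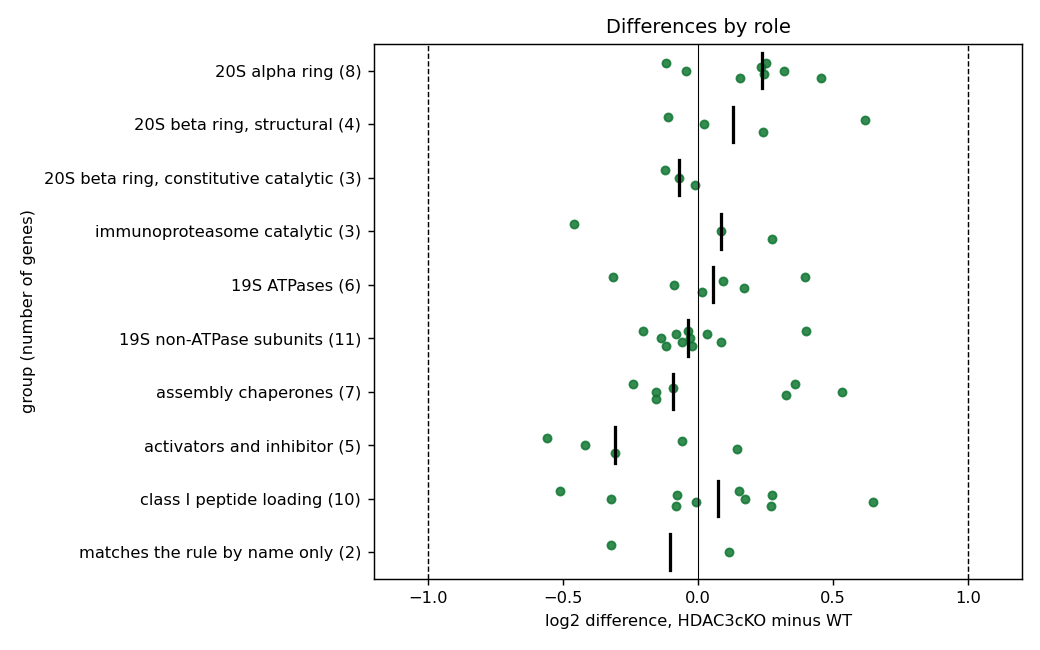
Log2 difference (HDAC3cKO minus WT) of each gene by role, 1 point per gene, with the group median as a black bar and dashed lines at 2-fold. The alpha ring centres on 0.24 and the activators and inhibitor on -0.31, and the non-ATPase subunits lie close to 0 except for Psmd12 at 0.40.

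The 10 peptide loading genes had a median of 0.07, with 5 above and 5 below 0, and the median became -0.03 under loess. B2m, the light chain of class I, was at 13.88 on both arrays. The table carries no saturation flag, so whether so bright a probe set can register a modest change is not known. Erap1, which trims peptides in the endoplasmic reticulum, was at 9.21 under the WT label and 9.86 under the HDAC3cKO label, a difference of 0.65 or 1.57-fold, and stayed between 0.59 and 0.70 under the rescalings.

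The subunits of the TAP transporter differed in sign. Tap1 was at 11.23 under the WT label and 11.38 under the HDAC3cKO label, a difference of 0.15. Tap2 was at 10.25 and 9.93, a difference of -0.32 or 1.25-fold. Along the class II region, Psmb9 and Tap1, which start in the shared window shown above, were thus at 0.09 and 0.15, and Psmb8 and Tap2 beyond them at -0.46 and -0.32. Each of these signs held under the rescalings, although Psmb9 came close to 0 under loess.

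Tapasin (Tapbp), which bridges TAP to the class I molecule, was at 11.34 under the WT label and 11.26 under the HDAC3cKO label, a difference of -0.08. Its relative Tapbpl, a peptide editor outside the loading complex, was at 9.26 and 9.53, a difference of 0.27. The lectin chaperones calreticulin (Calr) and calnexin (Canx), which fold and hold glycoproteins, differed by -0.08 and 0.17. Pdia3, the disulfide isomerase bound to tapasin, was at 11.82 and 12.08, a difference of 0.27. Of the promoter windows shown for their response element core, the Erap1 gene was higher at 0.65, whereas B2m and Psme1 lay at -0.01 and -0.06. The other members with this core, Psmb3, Psmd4, Psmd9 and Psmg4, were all below 0, at -0.11, -0.12, -0.09 and -0.16.

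Nlrc5, the transactivator of class I genes, was the lowest loading gene. It was also the only loading gene with more than 1 probe set, leaving out probe sets shared with other genes. The probe set chosen for its high mean was at 11.08 under the WT label and 10.57 under the HDAC3cKO label, a difference of -0.51 or 1.42-fold. The platform annotates 19 probe sets to Nlrc5, and all 19 were lower under the HDAC3cKO label. Their differences ran from -1.26 to -0.24, with a mean of -0.74 ± 0.28 (SD over 19 probe sets of 1 gene on the same 2 arrays, not over replicates), or 1.67-fold. The chosen probe set was the third least lowered. At least 2-fold lower were 5 of the 19, and 4 after median centring or quantile normalization. All 19 stayed below 0 under each rescaling. In the other 5 genes with more than 1 probe set, Psma3, Psma5, Psmb3, Psmc1 and Psmd2, probe sets of a gene lay within 0.07 to 0.18 of each other. Blood cells also express Nlrc5, and macrophage and dendritic cell markers were lower on the same array, with a median of -0.90. Their part in the Nlrc5 value was not tested.

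**Figure D4:**
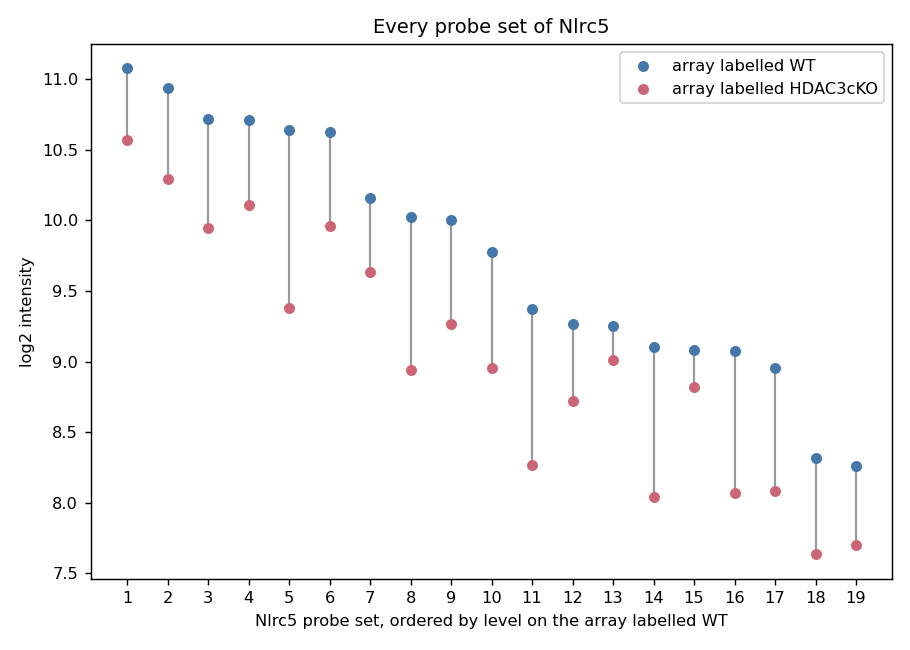
Log2 intensity of the 19 Nlrc5 probe sets on the arrays labelled WT (blue) and HDAC3cKO (red), ordered by their level on the former. The red point lies below the blue point in all 19, by between 0.24 and 1.26.

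Genes of the same pathway outside the symbol rule were taken from 4 lists. Of 19 measured proteasome-associated factors, none differed 2-fold and the median was -0.07. Pomp, which matures the core, differed by 0.15, and Nfe2l1, the transcription factor that induces proteasome genes when the proteasome is impaired, was at 11.08 under the WT label and 10.79 under the HDAC3cKO label, a difference of -0.29. Of 15 cytosolic peptidases and folding factors of the endoplasmic reticulum, none differed 2-fold, and the median was -0.09.

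Class I and class I-like heavy chain genes were mostly below 0, though some only by little. Of 23 listed genes, 14 were measured, and 8 of these passed the level filter. Of the 14 measured, 13 were below 0, with a median of -0.30. After median centring, quantile normalization and loess, 10, 12 and 13 were below 0. Of all 19937 named genes, 9620 were below 0. Cd1d1, H2-M9, H2-T24 and H2-M1 lay close to 0, at -0.006, -0.009, -0.04 and -0.06. H2-M5 was 2.59-fold lower, from 8.13 under the WT label to 6.76 under the HDAC3cKO label, and H2-M2 was 2.33-fold lower, from 11.55 to 10.33. The only one above 0 in the unscaled values was Mr1, which presents vitamin metabolites to MAIT cells, at 10.07 and 10.88, a difference of 0.80. H2-K1 and H2-D1, the main classical heavy chains of B6 mice, were not analysed here. Heavy chain genes are close copies, so their probe sets can pick up one another's transcripts and the values are uncertain.

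Among 21 measured regulators of class I genes, Irf1 was the only one past 2-fold in either direction. Irf1, an interferon-induced transcription factor that drives immunoproteasome and TAP genes, was at 11.05 under the WT label and 12.61 under the HDAC3cKO label, a difference of 1.56 or 2.95-fold, and between 1.46 and 1.61 under the rescalings. Receptor and kinase genes upstream of it went both ways. The interferon gamma receptor chain Ifngr2 differed by -0.75, Ifngr1 by -0.07, the kinase Jak2 by -0.64 and Jak1 by 0.25. Rfx5, Rfxap and Rfxank, whose products bind class I promoters together with NLRC5, differed by 0.34, 0.29 and 0.20. The median of the list was 0.25.

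Markers of thymic epithelium were compared in the same way. Epcam was at 11.33 under the WT label and 11.06 under the HDAC3cKO label. The 12 epithelial markers went both ways, 8 above and 4 below 0, with a median of 0.31 and summed intensities of 48850 and 59470. Such sums weigh bright genes most, here Krt18 at 13.16 and 14.01 and Krt8 at 13.73 and 13.96. Of these, Krt14, Aire, Prss16, Ly75 and Enpep were picked after their values were seen. The keratin gene Krt14 was 2.57-fold lower, at 12.24 under the WT label and 10.88 under the HDAC3cKO label. The medullary regulator Aire differed by -0.55. Prss16, a protease of cortical epithelium, was 2.05-fold higher, at 9.84 and 10.87, although its difference of 1.03 became 0.96 under loess. Ly75 and Enpep, also found on cortical epithelium, differed by 0.66 and 0.39. Enpep encodes Ly51, which the sort required to be low. The keratins Krt5, Krt8 and Krt18 went the other way from Krt14, at 0.40, 0.23 and 0.85. Trp63, Foxn1 and Cdh1 differed by 0.82, 0.13 and -0.32. Thymocyte and B cell markers had medians of -0.22 and -0.32. Summed intensities were 5643 and 4187 over 13 thymocyte genes and 1917 and 865 over 7 B cell genes. Of the 7 B cell genes, 1 passed the level filter. Cd79b was at 9.80 and 8.04 and Fcer2a at 8.98 and 6.95, whereas Pax5, Cd22 and Blk differed by -0.05, -0.06 and 0.11. Cd79a and Ms4a1 differed by -0.44 and -0.32. Fibroblast markers had a median of 0.64 over 10 genes, with summed intensities of 7629 and 17248. Dcn, the brightest of them, was at 11.84 and 13.29, although Pdgfra was at 8.09 and 7.58. The part of these cells, or of a different mix of epithelial cells, in any value above was not tested.

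**Figure D5:**
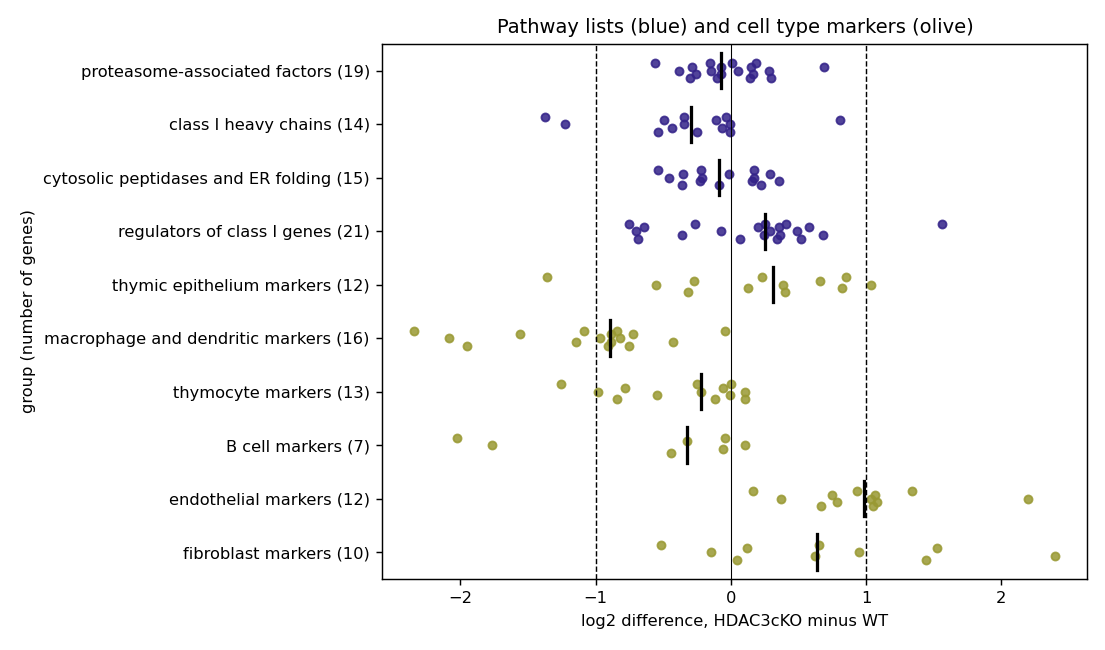
Log2 difference (HDAC3cKO minus WT) of each gene in the pathway lists (blue) and the cell type marker lists (olive), 1 point per gene, with list medians as black bars and dashed lines at 2-fold. Irf1 stands alone at 1.56 among the regulators, and the marker medians spread from -0.90 for macrophage and dendritic cells to 0.98 for endothelium.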

How the data were processed

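Values were the intensities the authors deposited, on a linear scale, for 34760 probe sets on 2 arrays. Per the submitters' processing notes they come from RMA, which corrects background, normalizes and summarises probes. Version, settings and build were not given in the sources used here, and the table has no detection calls. Values were transformed to log2 with no pseudocount. Gene names come from the annotation of the platform, which may be outdated: 21640 had 1 symbol, 1321 several (not named) and 11799 none here. All 59 members kept their symbol in a RefSeq gene table (GRCm38.p6), matched by Entrez ID. Depth has no equivalent here, and the number of arrays limits the precision.

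Members, lists and thresholds were chosen with earlier results of these data known. By rule, every catalytic, activator and loading gene, the highest and lowest gene of each other role, members past 1.5-fold, and listed pathway genes past 2-fold were named. Other members are given to complete each role, and the remaining epithelial markers to complete their list. Ifngr1, Ifngr2, Jak1, Jak2, Rfx5, Rfxap, Rfxank, Mr1, Krt14, Aire, Prss16, Ly75, Enpep and Sem1 were chosen after their values were seen. Counts and rescalings were tested on simulated data whose known shifts were larger than any member difference. Smaller differences, and shifts that depend on level, were not simulated. The alternatives were median centring, quantile normalization, loess (span 0.3), a pseudocount of 32, means over probe sets, every probe set, a 1.5-fold threshold, the level filter, leaving out Psmc3ip and Psma8, and, added after seeing the data, 1.5-fold together with another scaling, pseudocount or probe set rule. Software was pandas 2.3.3 and numpy 2.4.6 under Python 3.11.15, with statsmodels 0.14.6 for loess and matplotlib 3.10.9 for plots.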

Additional observations from a re-analysis of the deposited data

How the results depend on the processing

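With 1 array per genotype, no value here has a replicate check and none could be recomputed without a replicate. No paired analysis was possible because each group has 1 sample. The scalings moved the median of all named genes by between -0.04 and 0.05 on the log2 scale. No member passed 2-fold higher or lower under median centring, quantile normalization, loess, a pseudocount of 32, means over probe sets, the level filter, or without Psmc3ip and Psma8. Counting every probe set gave 5 that were at least 2-fold lower, all of Nlrc5, because the rule otherwise uses 1 probe set per gene. A 1.5-fold threshold gave 2 higher and 0 lower members in the unscaled values. With that threshold under the other settings, a combination chosen after seeing the data, the counts were 2 and 0 after median centring and with the pseudocount, 2 and 1 after quantile normalization and with means over probe sets, and 1 and 2 under loess. The median of the peptide loading genes was 0.07 and became -0.031 under loess, and the cause was not tested. A change below 0.1 on the log2 scale was counted as none, a limit set for want of replicates. By this limit, medians of the other role groups and pathway lists did not change under the scalings, the pseudocount or means over probe sets. The same held for the differences within the catalytic pairs. For these pairs, median centring and means over probe sets could not change the value. Centring shifts both genes alike, and each of these catalytic genes has 1 probe set. Single genes moved by 0.1 or more in 10 cases under loess and 4 under quantile normalization. The pseudocount and means over probe sets gave 2 such cases each. No gene past 2-fold changed sign.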

Other observations

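Other large protein complexes, chosen after seeing the data, give a scale for these values. Both sets are incomplete, since symbols that end in l, or in l and a single digit, were left out. Any probe sets of Rpl3 to Rpl9 are therefore not counted. Atp5l and Atp5mpl, at -0.43 and -0.45, are not counted either. Of 49 cytosolic ribosomal protein genes, which encode the protein part of the ribosome, 47 were above 0 (median difference 0.33), and 1 was at least 2-fold higher. After median centring, quantile normalization and loess, 48, 44 and 44 of them were above 0. Of 82 subunits of the respiratory chain and ATP synthase, the mitochondrial machinery of oxidative phosphorylation, 30 were above 0, with a median of -0.11, and none was 2-fold higher or lower, with differences from -0.86 to 0.94. Over the 35 members that are subunits of the 20S and 19S particles the median was 0.02, with 18 above 0. The SD of the differences over genes was 0.26 for the ribosomal, 0.31 for the respiratory and 0.23 for the proteasome genes, beside 0.64 over all named genes. No test of these differences is possible with 1 array per genotype.

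Probe sets annotated to several genes were left out, and 3 of them name a member. The probe set of Psme2 and Psme2b differed by -0.11, beside -0.31 for the probe set of Psme2 alone. The probe sets shared by Tapbp and the ribosomal protein gene Rps3a1 differed by 0.56 and 0.43, beside -0.08 for the probe set of Tapbp alone.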
